A study of Mus musculus with 8 samples.

Results

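Mouse cells that carried the deletion mutant delFG2 of the fusion NUP98-HOXA9 were compared with cells that carried an empty vector. The comparison rests on 4 of the 8 arrays of the series: the delFG2 arrays numbered 1 and 2 and the empty vector arrays numbered 1 and 2. The other 4 arrays are of cells with full-length NUP98-HOXA9 (2 arrays) and with a further deletion mutant, delFG1 (2 arrays). Arrays were chosen by the construct and number in their titles. All groups came from the C57BL/6 strain, and all received a vector, so the empty vector cells are the control for carrying it. The type of cell, the time after the construct was introduced, and which residues delFG1 and delFG2 lack are not stated in the sources used here. Per the labels the study asked which genes respond to the NUP98 portion of the fusion.

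NUP98 is a nucleoporin, a protein of the nuclear pore, whose amino-terminal part holds many phenylalanine-glycine (FG) repeats. HOXA9 is a homeodomain transcription factor of blood stem and progenitor cells. A chromosomal translocation in acute myeloid leukaemia joins the FG repeats of NUP98 to the DNA-binding homeodomain of HOXA9, and the fusion protein keeps HOX genes active that normally fall silent as myeloid cells mature. PBX and MEIS proteins bind DNA together with HOX proteins, and the chromatin protein MLL maintains HOX gene activity.

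Of 21789 probe sets (groups of array probes, each reading 1 gene) with 1 gene symbol, 110 differed between delFG2 and the empty vector, which is 0.505% of those tested. Of these, 23 were higher with delFG2 (0.106%) and 87 were lower (0.399%). The 110 probe sets stand for 109 genes of 19938 (0.547%). A probe set passed at an adjusted p under 0.05 in limma, in a fit of all 8 arrays that takes the array number as a pair. Levels are log2(intensity + 1) and differences are delFG2 minus empty vector on that scale. At least 2-fold changes were few: 4 probe sets were higher (0.0184%) and 2 lower (0.00918%). The median difference over all probe sets was 0.01.

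These calls depended on single arrays and on the pairing. Without the pairing, 965 probe sets had an unadjusted p under 0.05 in limma. That is fewer than this rule would pass on average if no gene differed. Only Csn2 passed in that fit (0.00459% of probe sets). The count was 2, both higher, without the delFG2 array numbered 1, 31 without the empty vector array numbered 1, and 1065 without the empty vector array numbered 2. It was 16 and 15 without the full-length array numbered 1 or 2, which enter only through the shared spread. The excess of falls did not hold in every case: without the delFG2 array numbered 2, 57 probe sets were higher and 54 lower. Differences were larger in the number 1 pair: their median size over all probe sets was 0.10, against 0.07 in the number 2 pair.

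For the 4 largest rises and for Stfa3, the largest fall with an entry, the 250 bases upstream of the RefSeq start (build GRCm38.p6) are shown 5′ to 3′ along the gene. The windows are chr5:87699426-87699675 (minus strand) for Csn2, chr5:136692896-136693145 (plus) for Myl10, chr5:104982718-104982967 (minus) for Abcg3, chr12:104127746-104127995 (plus) for Serpina3b and chr16:36455393-36455642 (minus) for Stfa3. Capitals mark matches to the motifs searched on both strands: TTCNNNGAA (STAT5), TGATNNAT (PBX-HOX), TTGCNNAA (C/EBP) and GAGGAAGT (PU.1). The Myl10 window is the first of 3 starts listed for the gene.
Csn2: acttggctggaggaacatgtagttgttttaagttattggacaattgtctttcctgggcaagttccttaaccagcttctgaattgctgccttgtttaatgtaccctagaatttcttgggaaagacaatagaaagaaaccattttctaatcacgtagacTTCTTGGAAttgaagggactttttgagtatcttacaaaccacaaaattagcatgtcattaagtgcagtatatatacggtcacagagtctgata
Myl10: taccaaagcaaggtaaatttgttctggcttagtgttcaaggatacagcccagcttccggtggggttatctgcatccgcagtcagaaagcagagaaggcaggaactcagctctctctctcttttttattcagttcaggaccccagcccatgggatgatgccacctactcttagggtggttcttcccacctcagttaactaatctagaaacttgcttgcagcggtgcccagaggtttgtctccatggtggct
Abcg3: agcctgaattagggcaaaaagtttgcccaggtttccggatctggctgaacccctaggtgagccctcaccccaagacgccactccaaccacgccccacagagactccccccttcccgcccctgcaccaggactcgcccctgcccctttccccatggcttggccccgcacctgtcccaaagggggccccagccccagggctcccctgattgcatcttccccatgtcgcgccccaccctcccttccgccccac
Serpina3b: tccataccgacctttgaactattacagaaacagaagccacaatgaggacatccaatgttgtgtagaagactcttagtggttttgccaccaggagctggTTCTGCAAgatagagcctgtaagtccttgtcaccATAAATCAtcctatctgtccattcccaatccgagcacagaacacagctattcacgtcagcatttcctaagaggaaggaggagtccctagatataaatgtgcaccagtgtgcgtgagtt
Stfa3: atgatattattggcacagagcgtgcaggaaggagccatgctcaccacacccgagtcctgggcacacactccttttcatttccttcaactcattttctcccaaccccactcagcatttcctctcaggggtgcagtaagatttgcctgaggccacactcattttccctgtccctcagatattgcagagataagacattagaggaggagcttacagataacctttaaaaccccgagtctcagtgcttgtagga

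The Csn2 window held 1 STAT5 match, 93 bases upstream of the start. The Serpina3b window held a C/EBP match and a PBX-HOX match on the minus strand, beginning 152 and 118 bases upstream. The windows of Myl10, Abcg3 and Stfa3 held none of these letters. Over all 32851 windows listed, 7.02% held the STAT5 motif, 7.68% PBX-HOX, 9.56% C/EBP and 2.44% PU.1. Of the genes that rose, 15 have a window, and of those that fell, 62. The PBX-HOX motif was in 6.67% of the former and 8.06% of the latter, against 6.42% of the 15614 tested genes with a window. The STAT5 motif was in 6.67%, 6.45% and 6.7% in the same order. These matches are a description of letters and not of binding.

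Csn2, which encodes the milk protein beta-casein and is a classic STAT5 target, had the largest rise. Its level was 6.74 and 7.22 in the empty vector arrays and 11.15 and 11.01 with delFG2. Both delFG2 arrays lay far above both controls. The difference was 4.09 ± 0.21 (SE, n = 2 arrays a group), a 17.1-fold rise with a limma adjusted p of 2.58e-05, and the adjusted p without the pairing was 0.0136. The 5 other casein and milk protein genes measured did not pass, among them Csn1s1 (0.14), Csn3 (0.02) and Csn1s2a (-0.05). Against the same empty vector arrays, Csn2 differed by 3.51 with the full-length fusion and by 5.15 with delFG1. Between delFG2 and these groups the adjusted p was 0.437 and 0.068.

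Myl10, a myosin regulatory light chain gene, stood at 7.31 and 7.24 in the controls and at 9.99 and 9.07 with delFG2. The rise was 2.26 ± 0.18, or 4.79-fold (adjusted p = 0.00098), and the delFG2 arrays differed from each other by more than the controls did. Abcg3, a member of the ABCG transporter family, rose from 5.62 and 5.48 to 7.71 and 7.50. That is 2.05 ± 0.19, or 4.15-fold (adjusted p = 0.00265). Serpina3b, a serine protease inhibitor gene, rose from 5.14 and 5.09 to 6.30 and 6.04, by 1.06 ± 0.13 (adjusted p = 0.0101). The full-length fusion gave 0.51 and delFG1 0.44 for Serpina3b, values whose difference from delFG2 did not pass (adjusted p = 0.13 and 0.0685).

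Genes of transcription and signalling were among the smaller rises. Gfi1, a zinc-finger repressor needed for neutrophil development, stood at 10.23 and 10.07 in the controls and at 11.17 and 10.72 with delFG2, a rise of 0.80 ± 0.12 (adjusted p = 0.0307). Both delFG2 arrays were above both controls, a condition for the named rises, and the full-length fusion (0.81) and delFG1 (0.91) gave values alongside. Tox, a nuclear HMG-box factor of lymphocyte development, rose by 0.76, from 7.73 and 7.58 to 8.62 and 8.22. Bambi, a decoy receptor that dampens TGF-beta signalling, rose by 0.72, and Ccno, a cyclin-family gene needed for multiciliated cells, by 0.69.

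Surface receptors of lymphocytes and other rises were of like size. Ccr4, a chemokine receptor, rose by 0.78, from 6.60 and 6.49 to 7.31 and 7.34. Cd28, a co-stimulatory receptor of T cells, rose by 0.69, and Cd69, an early activation marker of leukocytes, by 0.67. Il12a, the p35 subunit of interleukin-12, rose by 0.61, from 6.58 and 6.83 to 7.32 and 7.31. Adgrg6, an adhesion G protein-coupled receptor, rose by 0.60. B4galt4, a galactosyltransferase, rose by 0.86, Tst, the mitochondrial sulphurtransferase rhodanese, by 0.75, and Zmpste24, the protease that processes prelamin A, by 0.58. A further Zmpste24 probe set gave 0.39 and did not pass. Tmem218, Smim6 and Polr2k, a small subunit shared by the RNA polymerases, rose by 0.75, 0.66 and 0.57. Of the 23 rises, all 23 had arrays that did not overlap between the groups, against 29.3% of all probe sets, and 20 were larger in the number 1 pair. A call by a small p itself favours probe sets without overlap. Their median difference was 0.72, with 0.82 in the number 1 pair and 0.58 in the number 2 pair.

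**Figure D1:**
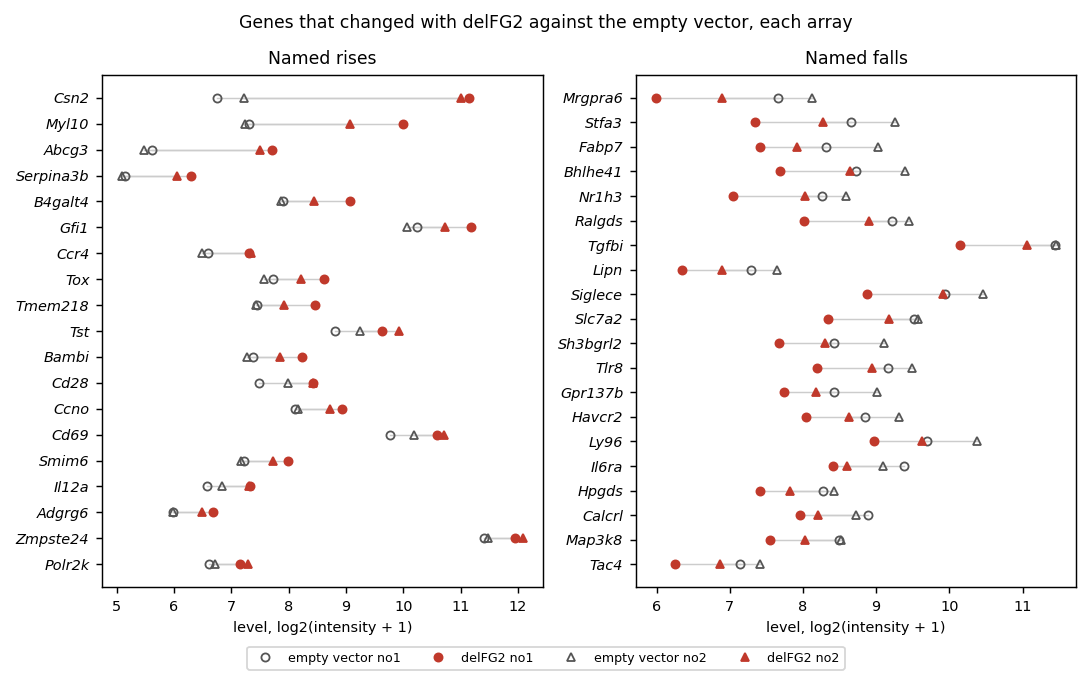
Level of the named rises (left) and the 20 named falls (right) past the threshold, as log2(intensity + 1) in each array, with open marks for the empty vector, filled marks for delFG2, circles for arrays numbered 1 and triangles for arrays numbered 2. Csn2 moved from 6.74 and 7.22 to 11.15 and 11.01, and in all 20 falls the delFG2 array numbered 1 is the lowest point.

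**Figure D2:**
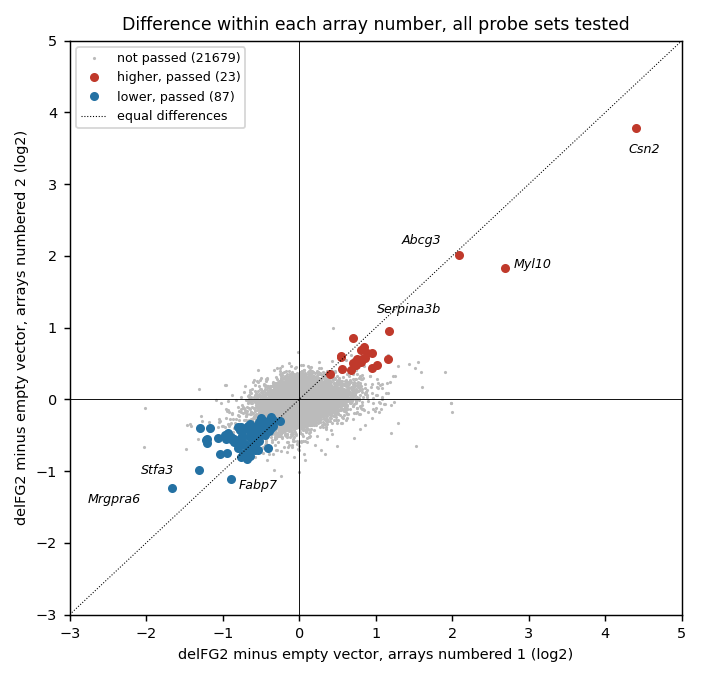
Difference between delFG2 and the empty vector (log2) in the arrays numbered 1 (x axis) and numbered 2 (y axis), 1 point per probe set, with those that passed in colour. All 110 coloured points have the same sign in both pairs, and 20 of the 23 rises and 68 of the 87 falls are larger in the number 1 pair.

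In the fit of all 8 arrays the falls were smaller and more numerous than the rises, an excess that was lost when either delFG2 array was left out. Mrgpra6, a Mas-related G protein-coupled receptor, fell the most. It stood at 7.65 and 8.13 in the controls and at 5.99 and 6.89 with delFG2. The difference was -1.45 ± 0.15 (SE of the paired limma fit of all 8 arrays, adjusted p = 0.00467). The SD between the 2 arrays of a group was larger, at 0.34 for the empty vector and 0.64 for delFG2. Stfa3, a stefin that inhibits cysteine proteases, went from 8.66 and 9.26 to 7.35 and 8.27, a difference of -1.15 ± 0.15 (adjusted p = 0.0169). Its relative Stfa2 went from 10.73 and 11.18 to 9.98 and 10.80, where the arrays of the groups overlap (-0.57, adjusted p = 0.0316). Fabp7, a fatty acid binding protein, went from 8.31 and 9.02 to 7.41 and 7.92 (-1.0, adjusted p = 0.0307). Stefin A genes are closely similar copies, and how far probes tell them apart is not known. For Mrgpra6, Stfa3, Stfa2 and Fabp7 the arrays numbered 2 were above those numbered 1 within both groups.

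Transcription factors among the falls included Bhlhe41, a basic helix-loop-helix repressor (-0.90), and Nr1h3, which encodes the oxysterol receptor LXR-alpha (-0.89), and with smaller differences the Ets-family factor Spic (-0.55) and the MADS-box factor Mef2a (-0.43). Nr1h3 stood at 8.26 and 8.58 in the controls and at 7.04 and 8.02 with delFG2. Abcg1, an LXR target that exports cholesterol, went from 11.51 and 11.74 to 11.08 and 11.42 (-0.38, adjusted p = 0.0314). It was the only member that passed of 20 cholesterol synthesis and transport genes, whose median difference was 0.12. Lipn, a member of the acid lipase family, fell by 0.84, and Lipa, the lysosomal acid lipase, by 0.36. Plin2, a coat protein of lipid droplets, fell by 0.31. Of 19 liver X receptor and lipid handling genes, 6 fell and 0 rose, against 0.431% and 0.115% of all genes. This list was drawn up after the values were seen, so its share cannot be weighed against that of all genes. Its median was -0.08, with 12 values negative and 7 positive, up to 0.39. None of the 19 passed without the pairing, and Abcg1 and Lipa did not pass in the fit of only the 2 groups compared.

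Some innate immune receptors were among the falls. Of 16 Toll-like receptors and partners, 4 fell, 0 rose and 12 did not pass, against 0.431% lower and 0.115% higher of all genes. The list was drawn up after the values were seen, so its share cannot be weighed against that of all genes. The 4 were Tlr8, Tlr7, Ly96 and Cd180, and the other members ran from -0.54 for Tlr3 to 0.60 for Ly86, a partner of Cd180. The list's median was -0.23, beside -0.30 for the full-length fusion and -0.38 for delFG1 against the same controls. Tlr8, an endosomal sensor of single-stranded RNA, went from 9.16 and 9.49 to 8.19 and 8.94 (-0.76). Tlr7, a further RNA sensor, went from 8.75 and 9.34 to 8.23 and 8.75 (-0.55). Ly96, the MD-2 partner of TLR4, went from 9.69 and 10.38 to 8.97 and 9.63 (-0.73 ± 0.08, adjusted p = 0.00975). Cd180, a TLR-like surface receptor, fell by 0.50, Siglece, an inhibitory sialic acid receptor, by 0.80, and Havcr2, the checkpoint receptor TIM-3, by 0.74. Il6ra, which binds interleukin-6, went from 9.38 and 9.10 to 8.42 and 8.60 (-0.73), and Il17ra fell by 0.71. Both delFG2 arrays were below both controls for Tlr8, Ly96, Siglece, Havcr2 and Il6ra, a condition for the named falls. For Tlr7 the arrays of the groups overlapped.

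Signalling and matrix genes that fell included Ralgds, an exchange factor for Ral GTPases (-0.88), Map3k8, the kinase TPL2 (-0.72), and Tgfbi, a secreted matrix protein (-0.85). Tgfbi stood at 11.44 and 11.46 in the controls and at 10.14 and 11.07 with delFG2, so most of its difference came from the number 1 pair. The full-length fusion gave -1.29 and delFG1 -1.19 for Tgfbi. Slc7a2, a cationic amino acid transporter, fell by 0.78, Gpr137b, a lysosomal membrane protein, by 0.75, and Sh3bgrl2 by 0.78. Hpgds, the haematopoietic prostaglandin D synthase, went from 8.27 and 8.42 to 7.41 and 7.82 (-0.73). Calcrl, a receptor for CGRP and adrenomedullin, went from 8.89 and 8.72 to 7.96 and 8.21 (-0.72), and Tac4, which encodes hemokinin, fell by 0.72. The median of the 87 falls was -0.59, with -0.65 in the number 1 pair and -0.50 in the number 2 pair. Of the 87, 67 had arrays that did not overlap, against 29.3% of all probe sets, though a call by a small p itself favours such probe sets.

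Many falling probe sets also differed by array number. Of the 87, 70 were higher in the arrays numbered 2 than in those numbered 1 over all groups, against 6.43% of all probe sets. Of the 23 rises, 3 were. The labels do not say what was shared by arrays of 1 number, and the part of the number effect in these calls was not tested.

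Of 25 monocyte and macrophage genes measured, 6 fell and 0 rose, against 0.431% and 0.115% of all genes tested. The list was chosen with earlier results of these data known, so its share cannot be weighed against that of all genes. By array number, 13 of the 25 were higher in the arrays numbered 2, against 6.43% of all probe sets. Slc15a3, a lysosomal peptide and histidine transporter, went from 9.71 and 9.93 to 9.07 and 9.14 (-0.72, adjusted p = 0.0179). Anpep, the aminopeptidase CD13, went from 10.58 and 10.75 to 9.93 and 10.22 (-0.59). Fcgr1, the high-affinity IgG receptor, went from 8.61 and 8.64 to 8.0 and 8.11 (-0.57). Each of these had both delFG2 arrays below both controls. Msr1, a scavenger receptor, fell by 0.52 with overlapping arrays, Myof, a membrane repair protein, by 0.45, and Cd68, a macrophage endolysosomal glycoprotein, by 0.32.

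The list's median difference was -0.32, and 22 of the 25 values were negative, from -1.35 for Acod1, the itaconate enzyme, upwards. Against the same controls the list's median was -0.55 with the full-length fusion and -0.51 with delFG1, so lower values in this list were not particular to delFG2. Acod1 was spread widely (9.99 and 10.41 against 7.95 and 9.75) and did not pass, with an adjusted p of 0.0802. Csf1r, the M-CSF receptor, gave -0.43 (adjusted p = 0.159) and Mrc1, the mannose receptor, -0.51 (adjusted p = 0.0847). Ccr2, the receptor of inflammatory monocytes, gave 0.63 (adjusted p = 0.12) and Cd14 -0.13. Leaving out 1 array changed the count of falls to 0 (delFG2 numbered 1), 2 (delFG2 numbered 2 or empty vector numbered 1), 1 (either full-length array) or 8 (empty vector numbered 2), and it was 0 without the pairing. With no intensity trend none of the 6 genes passed, and with quantile normalization 2 did. Fcgr1, Myof and Cd68 also did not pass in the fit of only the 2 groups compared. In bulk RNA, fewer cells of a type and less RNA per cell cannot be told apart.

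**Figure D3:**
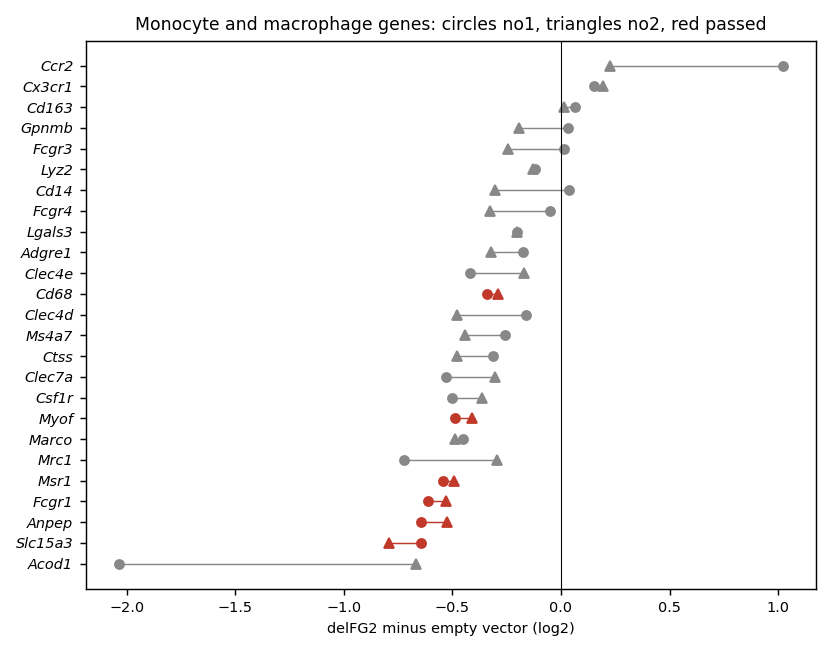
Difference between delFG2 and the empty vector (log2) for 25 monocyte and macrophage genes, with circles for the number 1 pair and triangles for the number 2 pair, in red where the gene passed. The 6 genes that fell lie at -0.72 to -0.32 with both pairs close to each other, and Acod1 shows the widest gap between pairs.

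Markers of the cell types that the samples could hold were read as summed intensity. The 8 neutrophil markers were above the array median in every array, and their sum was 40934 to 45635 with the empty vector and 42719 to 46576 with delFG2. The 6 monocyte and macrophage markers measured summed to 10921 to 14157 and 8347 to 11235. None of the 4 B cell markers and none of the 3 fibroblast markers was above the median in every array. The 4 T and NK cell markers measured summed to 3310 to 3830 with the empty vector and 4119 to 4684 with delFG2, without overlap. Of these only Nkg7, a granule protein of cytotoxic cells, was above the median in every array (0.31, adjusted p = 0.32 in limma), and Cd3e gave 0.07, Cd3g 0.04 and Ncr1 -0.04. The part of these markers in the rises of Cd28, Ccr4, Cd69 and Tox was not tested. The 6 mast cell and basophil markers summed to 10456 to 11381 and 9699 to 11273, and the 4 eosinophil markers to 5767 to 11085 and 5193 to 9030. The part of any shift in cell types in the falls was not tested.

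Neutrophil granule and maturation genes did not pass in either direction (0 of 23, with 5 higher and 5 lower at an unadjusted p under 0.05, a rule that 10.8% of all probe sets met). Mpo, the myeloperoxidase of primary granules, stood at 13.13 and 12.89 against 13.08 and 12.96. Elane, neutrophil elastase, gave 0.11. Mmp9, a gelatinase of late granules, stood at 8.81 and 9.98 against 9.74 and 10.31 (0.62, adjusted p = 0.0811), and Chil3, a chitinase-like protein, at 11.56 and 12.20 against 10.14 and 11.82 (-0.90, adjusted p = 0.0812). Groups overlapped for both. By array number, 17 of the 23 genes were higher in the arrays numbered 2, against 6.43% of all probe sets. Of the 3 stefin and cystatin genes measured, Stfa3 and Stfa2 fell and Cstb, cystatin B, gave -0.16.

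Other lineage lists held few calls, beside 0.115% of all genes higher and 0.431% lower. Of 22 myeloid transcription factors, Gfi1 rose and none fell, with Klf4 at -0.51 (adjusted p = 0.144). Of 18 haematopoietic growth factor receptors, Il6ra fell, and the median was -0.11. Of 21 mast cell and basophil genes and of 16 prostaglandin and leukotriene enzymes, Hpgds, which is in both lists, fell. Of 15 erythroid and haem synthesis genes, Car2, carbonic anhydrase 2, rose from 9.52 and 9.26 to 10.20 and 9.67 (0.54, adjusted p = 0.0314). Of 29 inflammatory cytokines, chemokines and receptors, Il12a rose and none fell. Without the pairing none of these calls held.

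In 20 of the 30 lists no member passed. They hold 397 members, with genes in more than 1 list counted each time, and at an unadjusted p under 0.05 these lists had 45 members higher and 42 lower, where 10.8% of all probe sets met that rule in either direction. Their medians lay between -0.15 and 0.16. Cell cycle genes (31 measured, median 0.01), nucleoporins and nuclear transport genes (22, median 0.01), MLL and associated chromatin genes (25, median -0.05), interferon-stimulated genes (24, median 0.04) and lymphoid genes (28, median 0.04) were among them. No nucleoporin reached an unadjusted p under 0.05. Among stem and progenitor genes, Cd34 gave 0.31 (adjusted p = 0.146) and Kit, the stem cell factor receptor, -0.08. Myc gave 0.20, Mycn 0.38, Cdk6 0.01, Flt3 0.06 and Mecom -0.09.

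**Figure D4:**
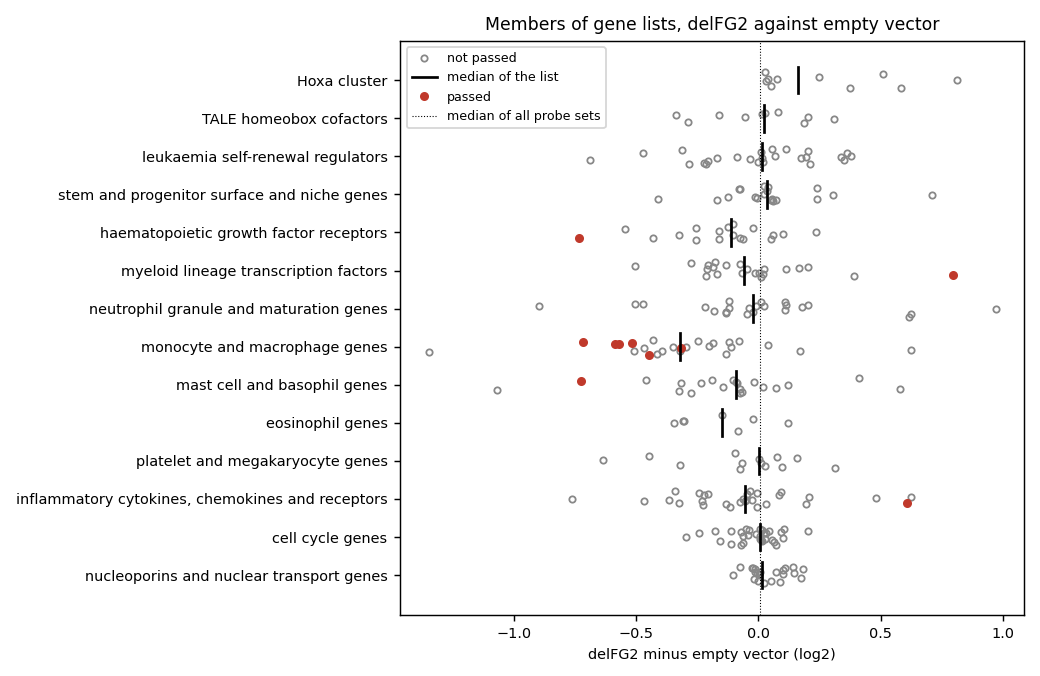
Difference between delFG2 and the empty vector (log2) for each measured member of 14 gene lists, with a bar at the list's median, red points for members that passed and a dotted line at the median of all probe sets. The monocyte and macrophage list has its median at -0.32 and 6 red points, and the Hoxa cluster has its median at 0.16 and none.

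The Hoxa genes are the best-known targets of NUP98-HOXA9. Against the empty vector, 0 of the 10 measured passed with delFG2. At an unadjusted limma p under 0.05, 4 were higher and 0 lower, where 10.8% of all probe sets met that rule in either direction. All 10 values were positive in the fit of all arrays, though Hoxa2, Hoxa3, Hoxa4 and Hoxa13 were below 0 without the delFG2 array numbered 1, Hoxa2 and Hoxa11 without the empty vector array numbered 1, and Hoxa11 without the delFG2 array numbered 2. Their median was 0.16, beside 0.99 for the full-length fusion and 0.43 for delFG1 against the same controls. Hoxa6 stood at 6.51 and 6.28 in the controls and at 7.36 and 7.05 with delFG2 (0.81 ± 0.16, adjusted p = 0.0615). Hoxa5 stood at 5.64 and 5.46 against 6.26 and 6.01 (0.58, adjusted p = 0.0802), and Hoxa7 at 6.79 and 6.93 against 7.53 and 7.20 (0.51, adjusted p = 0.135). In these 3 genes both delFG2 arrays were above both controls. Hoxa6 was near the threshold: it passed under 6 of 17 other settings, such as the fit of only the 2 groups (adjusted p = 0.0105) and without either full-length array (0.0426 and 0.0424), with a range of 0.0105 to 1. Hoxa5 passed only in the fit of the 2 groups (0.0145), and Hoxa7 only without the empty vector array numbered 2 (0.016).

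Hoxa9 itself stood at 7.56 and 7.34 in the controls and at 8.06 and 7.59 with delFG2 (0.37, adjusted p = 0.283). Nup98 gave 0.02, from 11.09 and 10.82 to 11.01 and 10.94. Whether these probe sets read the introduced fusion is not known, so they do not check the labels. Hoxa3 gave 0.25, and Hoxa2, Hoxa4, Hoxa10, Hoxa11 and Hoxa13 lay between 0.03 and 0.08. Of 27 genes of the other Hox clusters none passed, with Hoxb4 at 0.31 (adjusted p = 0.303). At an unadjusted limma p under 0.05, 1 was higher and 1 lower, where 10.8% of all probe sets met that rule in either direction.

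Set directly against the full-length fusion, delFG2 differed in 102 probe sets (0.468%), of which 65 were higher (0.298%) and 37 lower (0.17%). Hox genes and their partners were among the lower ones. Of the 10 Hoxa genes, 6 were lower with delFG2, against 0.176% of all genes. The list was chosen with earlier results of these data known, so this share cannot be weighed against that of all genes. Hoxa7 stood at 9.01 and 9.0 with the full-length fusion, against 7.53 and 7.20 with delFG2 (-1.64 ± 0.13, adjusted p = 0.000332). Hoxa9 stood at 9.41 and 9.43 (-1.60), and Hoxa5 and Hoxa6 were lower by -1.58 and -1.45. Hoxa3 (-1.11) and Hoxa10 (-0.55) passed as well.

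Eya1, a transcriptional co-activator and phosphatase, showed the largest of these differences. It stood at 9.06 and 8.98 with the full-length fusion and at 6.11 and 6.24 with delFG2 (-2.84 ± 0.12, adjusted p = 1.93e-06), while the empty vector arrays were at 6.43 and 6.76. Pbx3, a DNA-binding partner of HOX proteins, stood at 10.63 and 10.24 with the full-length fusion, at 8.72 and 8.70 with delFG2 and at 8.75 and 8.65 in the controls (-1.73, adjusted p = 6.65e-05). Mef2c, a MADS-box factor (-0.91, adjusted p = 0.00435), Meis1, a further HOX partner (-0.72, adjusted p = 0.012) and Cd34 (-0.55, adjusted p = 0.0139) were also lower with delFG2. Against the empty vector, Eya1 gave -0.42 (adjusted p = 0.171), Pbx3 0.01, Mef2c 0.17 and Meis1 0.08.

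**Figure D5:**
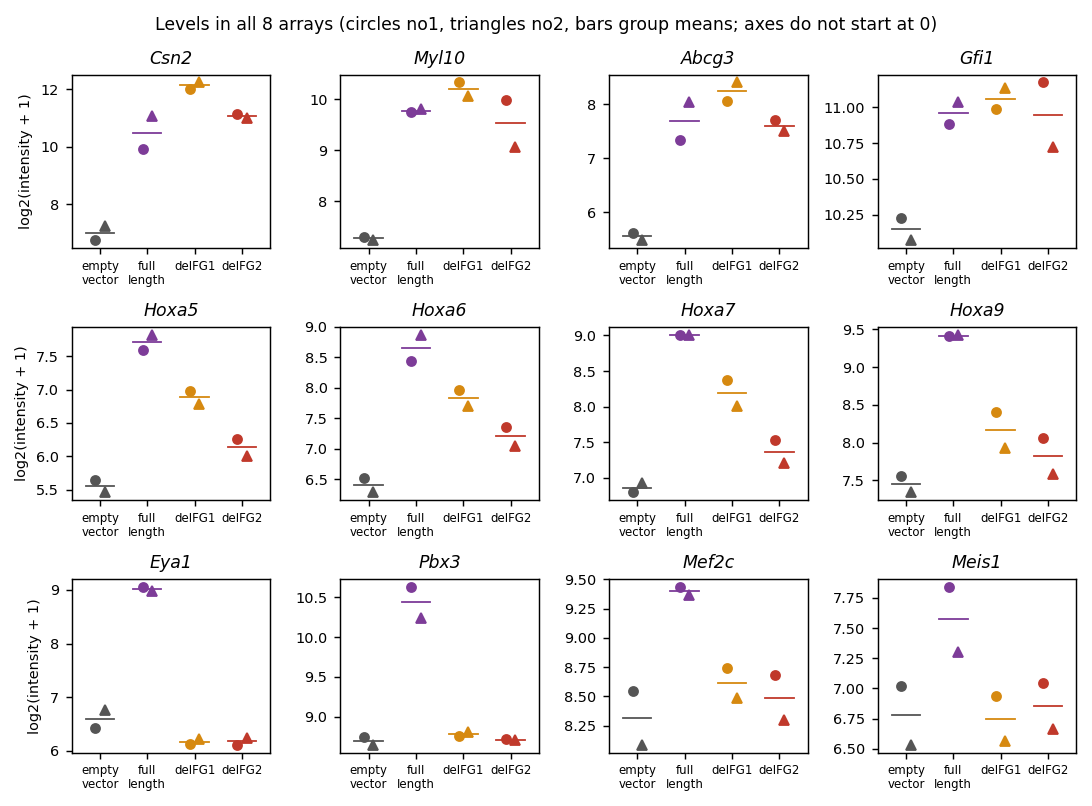
Level of 12 genes, as log2(intensity + 1), in all 8 arrays, with circles for arrays numbered 1, triangles for arrays numbered 2 and bars at the group means; axes do not start at 0. Csn2, Myl10, Abcg3 and Gfi1 are high in the 3 groups with the fusion or a mutant, whereas Eya1 and Pbx3 are high only in the full-length arrays among these 8.

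Among the genes higher with delFG2 than under full-length NUP98-HOXA9 were 9 of the 23 neutrophil genes, against 0.311% of all genes. This list too was chosen with earlier results of these data known, so its share cannot be weighed against that of all genes. Stfa3 stood at 6.15 and 6.31 with the full-length fusion, against 7.35 and 8.27 with delFG2 (1.58 ± 0.15, adjusted p = 0.00142), and Stfa2 was higher by 1.46. The stefins thus lay between the empty vector and the full-length level, with tests passed on both sides. Retnlg, a resistin-like protein of neutrophils, was higher by 1.44, from 6.87 and 6.94 to 8.46 and 8.22. Mmp9 was higher by 1.03, Olfm4, an olfactomedin of a neutrophil subset, by 1.03, and Klk1b11, a kallikrein, by 1.13. Mrgpra6 (0.91, adjusted p = 0.0256) and Fabp7 (1.0, adjusted p = 0.017) also lay between, beside -2.37 and -2.0 for full length minus empty vector. Calcrl went the other way: it stood at 9.05 and 8.92 with the full-length fusion and was lower with delFG2 (-0.90, adjusted p = 0.00641).

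The pairing and single arrays bore on this comparison too. Without the pairing 602 probe sets had an unadjusted p under 0.05 in limma. Here too that is fewer than the rule would pass on average if no gene differed. In that fit 6 probe sets passed (0.0275%), all lower with delFG2. The count was 17 and 19 without the delFG2 array numbered 1 or 2, 18 and 29 without the full-length array numbered 1 or 2, and 324 and 320 without the empty vector array numbered 1 or 2. The excess of probe sets higher with delFG2 turned without either delFG2 array (6 higher and 11 lower, then 9 and 10) and without either full-length array (6 and 12, then 8 and 21).

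Against delFG1, 117 probe sets differed (0.537%), with 88 higher with delFG2 (0.404%) and 29 lower (0.133%). Of the 10 Hoxa genes, 2 were lower with delFG2, against 0.135% of all genes: Hoxa7 by -0.82 (adjusted p = 0.0258) and Hoxa5 by -0.75 (adjusted p = 0.0342). Csn2 stood at 12.03 and 12.24 with delFG1 and did not pass against delFG2. Tox (-0.74), Ccr4 (-0.75) and Bambi (-0.58) were lower than with delFG1, at adjusted p of 0.0288, 0.0428 and 0.0427.

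The largest difference from delFG1 was in Tmem47, a tetraspan junction protein. It stood at 9.31 and 8.0 with delFG1 and at 7.24 and 5.74 with delFG2 (-2.16 ± 0.30, adjusted p = 0.0158), beside 5.34 and 5.36 with the empty vector. Hpgd, which inactivates prostaglandins (-1.59), Gstt1, a glutathione transferase (-1.25), and Vcam1, an adhesion molecule (-1.14), were lower as well, followed by Gpx8 (-1.08) and Ugt8a (-1.01). Ppbp, a platelet chemokine precursor (1.36), Il6, the cytokine interleukin-6 (1.15), Slfn4, a Schlafen gene of myeloid cells (1.16), Stfa3 (1.32) and Stfa2 (1.11) were higher with delFG2. Il6 stood at 7.78 and 8.37 with delFG2, at 6.48 and 7.37 with delFG1 and at 8.16 and 8.71 with the empty vector, and delFG2 did not differ from the empty vector by the test (-0.36, adjusted p = 0.233). Of the 23 neutrophil genes, 7 were higher with delFG2 than with delFG1, against 0.421% of all genes. The share of this list, like that of the Hoxa genes, cannot be weighed against that of all genes.

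In limma without the pairing, 0 probe sets passed between the mutants. Of the 21789 tested, 683 had an unadjusted p under 0.05, fewer than that rule would pass on average if no gene differed. With it, the count was 1 without the delFG1 array numbered 1, 8 and 3 without the delFG2 array numbered 1 or 2, 51 and 42 without the full-length array numbered 1 or 2, and 313 and 312 without the empty vector array numbered 1 or 2.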

How the data were processed

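Total RNA was measured on 8 arrays, 4 groups of 2. The authors deposited linear intensity values for 28853 probe sets in 1 table. RNA was purified on RNeasy columns and biotin-labelled for whole-transcript arrays, per the labels' protocols. Background correction, summarisation and normalisation are not stated in the sources used here. Median intensity was 80.7 to 83.2 per array. The deposited intensity values were used as log2(intensity + 1) with no further scaling, and no low values were filtered out. A fold here understates changes of dim genes. Precision is limited by how few arrays there are.

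Genes were named from the supplied platform annotation: 21789 probe sets had 1 symbol and were tested, 1621 had several and 5443 none. The Entrez numbers of 21698 were found in the RefSeq table (GRCm38.p6). Genes with several probe sets (999) are named by the one with the highest mean.

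Testing used limma 3.58.1 in R 4.3.3 (lmFit and eBayes with an intensity trend), with 4 group means and the array number as a block, Benjamini-Hochberg adjustment over all tested probe sets in each comparison, a threshold of 0.05 and two-sided p-values. The fit had 3 residual and 7.78 prior degrees of freedom. All 3 comparisons of delFG2 share this fit. The script was tested on simulated data. No label ties the arrays of a group to separate cultures. The p-values thus reflect only the spread between these arrays, and it may be technical.

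The pairing comes from the array numbers in the titles. Between groups, same-numbered arrays deviated together, with r of 0.401 to 0.640 over the 6 pairs of groups.

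Named genes are, in each direction, the 20 that passed with the largest changes and no overlap of arrays, 6 each way for the other comparisons by the same rule, a set of fusion-related genes and up to 4 examples per list. Predicted, olfactory-type receptor, immune receptor segment and small RNA genes were skipped. Of the named rises, 1 is not reported here. Others, such as further members that passed, were chosen after their values were seen. Members and lists were chosen with earlier results of these data known, so no list's share can be weighed against that of all genes. Alternatives were the fit without the block, only the 2 groups, no trend, another pseudocount, median centring, quantile normalization, the brighter probe sets, 1 probe set per gene and each array left out. Promoter windows are from RefSeq, 29 of the 40 named genes having one.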

Additional observations from a re-analysis of the deposited data

Results flagged for a closer look

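Probe sets with several gene symbols or none entered no comparison of the report. In the same limma fit, 4 of these 7064 probe sets differed between delFG2 and the empty vector (0.0566%), 1 higher and 3 lower. They carry no gene name here.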

How the results depend on the processing

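No named gene that passed changed sign under any alternative run, but the balance of higher and lower calls turned: against the empty vector without the block and without either delFG2 array, and against full length without the block and without any 1 of the delFG2 or full-length arrays. Counts are given as total, higher and lower with delFG2. Without the replicate block they were 1, 1 and 0 against the empty vector, 6, 0 and 6 against the full-length fusion, and 0, 0 and 0 against delFG1. In the fit of only the 2 groups compared, 40 were higher than the empty vector. The same fit gave 496, 338 and 158 against full length and 258, 190 and 68 against delFG1, and it shared 84 calls with the main result against the empty vector. With no intensity trend the counts were 17, 6 and 11, then 48, 27 and 21, then 2, 2 and 0. Median centring gave 173 against the empty vector, 139 of them lower, and kept all 110 calls. Quantile normalization gave 44, 15 and 29, with 34.1% higher in place of 20.9%, and 19 lower than delFG1. Among probe sets above the median mean the counts were 193, 37 and 156 against the empty vector, with 22 lower than full length and 19 lower than delFG1. The cause of these shifts was not tested.

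Leaving out 1 array gave 2 to 1065 against the empty vector (2 to 472 higher, 0 to 593 lower), 17 to 324 against full length (6 to 229 higher, 10 to 95 lower) and 1 to 313 against delFG1 (1 to 250 higher, 0 to 63 lower). Where a group keeps 1 array, it is assumed to vary like the others. Csn2 passed in all 9 other settings and all 8 with an array left out. Myl10 was lost only without the block. Signal over background is not given, so how dim a level can be trusted is not known.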

Other observations

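Families chosen after their values were seen showed more of the fallen genes, beside 0.431% of all genes lower and 0.115% higher. Chosen in this way, their shares cannot be weighed against those of all genes. Of 8 P2Y nucleotide receptors, which sense extracellular nucleotides, 3 fell: P2ry6 (-0.67), P2ry13 (-0.54) and P2ry14 (-0.40). P2ry6 stood at 7.97 and 8.29 with the empty vector and at 7.24 and 7.67 with delFG2. Of 14 cathepsins, the lysosomal proteases, Ctsk (-0.67) and Ctsb (-0.28) fell. Of 20 subunits of the V-ATPase, the proton pump of lysosomes, Atp6v0d2 (-0.63, adjusted p = 0.0109 in limma) and Atp6v0a1 (-0.38) fell. Atp6v0d2 stood at 11.11 and 11.46 against 10.37 and 10.94. Of 12 annexins, calcium-dependent membrane binders, Anxa1 (-0.52) and Anxa4 (-0.41) fell. None of the 4 families had a member that rose. Their medians were -0.30, -0.16, -0.07 and -0.08, beside -0.46, -0.35, -0.14 and -0.12 for full length and -0.51, -0.36, -0.09 and -0.20 for delFG1. No member passed without the replicate block. P2ry13, P2ry14, Ctsb, Atp6v0a1 and Anxa4 also did not pass with only the 2 groups compared, with no intensity trend or with quantile normalization. P2ry6 was lost in the last 2 of these settings, and Anxa1 and Atp6v0d2 with no intensity trend. Each of the fallen members named here, Ctsk among them, was also lost in some runs with 1 array left out, and P2ry13 in every such run.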
